A study of Mus musculus with 4 samples.

Results

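The genes described here are 8 components of the Nodal, Lefty and activin signalling pathway: Nodal, Lefty1, Lefty2, Tdgf1, Gdf3, Skil, Smad7 and Acvr2b. They were chosen by symbol, as every probe set annotated to one of these symbols alone, and are 8 of the 18193 genes that the array names by 1 symbol. The array carried 14 probe sets for them. Acvr2b had 3 probe sets, 4 genes had 2 each (Nodal, Gdf3, Skil and Smad7) and 3 genes had 1 each (Lefty1, Lefty2 and Tdgf1).

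The arrays came from E14.1 mouse embryonic stem (ES) cells, which are lines of pluripotent cells derived from the early embryo. The 4 cultures were Sall4-null cells (delta/-, line KO1) on feeders, Sall4 heterozygous cells (flox/-, line HET18) on feeders, Sall4-null cells without feeders and heterozygous cells without feeders, with 1 array each. Feeders were blasticidin-resistant mouse embryonic fibroblasts, and cultures without them were grown on gelatin. The medium of all 4 contained LIF (leukaemia inhibitory factor) and blasticidin. The cells of both genotypes had been electroporated with a vector that places a blasticidin-resistance gene under Oct3/4, the pluripotency gene Pou5f1. Each genotype was 1 line, so a difference between lines and a difference between genotypes cannot be told apart. There were no replicate arrays.

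Nodal and activin are ligands of the TGF-beta family. They bind type II receptors such as ACVR2B and type I receptors, and Nodal and GDF3 also need the co-receptor encoded by Tdgf1 (Cripto). The receptors phosphorylate SMAD2 and SMAD3, which enter the nucleus with SMAD4 and act with partners such as FOXH1. Lefty1 and Lefty2 encode secreted antagonists that are themselves induced by the signal, so that their transcripts are commonly read as its output in ES cells and in the embryo. Smad7 and Skil encode inhibitors inside the cell and are also induced by signals of this family.

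The values were linear MAS5 signals, an array intensity in arbitrary units, whose 2% trimmed mean was 100 on each array. Median signals of all probe sets lay between 16.1 and 18 on the 4 arrays. Sall4 itself gave higher signals on the arrays labelled null with both of its probe sets, 1452.4 against 780.8 on feeders and 1670.5 against 1126.5 without feeders for the brighter one. Where these probe sets lie relative to the deleted part of the gene is not given, so they leave the genotype unchecked. All directions given for genotype are those of the labels, and the cells are called labelled null. Of 8 ES cell markers, including Pou5f1, Sox2 and Nanog, all 8 exceeded the median signal of 17.1 on each array, with a lowest signal of 103.3. Fibroblast markers, 19 genes on the array, summed to a signal of 18702.3 in labelled-null and 13402.4 in heterozygous cultures on feeders, and to 845.4 in labelled-null and 339.8 in heterozygous cultures without feeders. None was at 0. Arrays from cultures on feeders thus hold RNA of 2 cell types. In such bulk RNA, fewer cells that express a gene and less of its RNA per cell cannot be told apart.

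Promoter sequences were listed for 3 of the 8 genes. All 3 are shown because they were the ones listed: Nodal (the ligand), Tdgf1 (its co-receptor) and Acvr2b (a receptor). Each line gives the 250 bases before the RefSeq start site (build GRCm38.p6), 5′ to 3′ on the gene's own strand. The Nodal window is chr10:61417722-61417971 on the plus strand, the Tdgf1 window chr9:110946159-110946408 on the minus strand and the Acvr2b window chr9:119401928-119402177 on the plus strand. The Acvr2b window lies within the span of the annotated gene (chr9:119401583-119442148), so its positions are counted from a start site inside that span. Capitals mark matches to a SMAD box (CAGAC) or to a FOXH1 motif (AATNNACA), searched on both strands.
Nodal: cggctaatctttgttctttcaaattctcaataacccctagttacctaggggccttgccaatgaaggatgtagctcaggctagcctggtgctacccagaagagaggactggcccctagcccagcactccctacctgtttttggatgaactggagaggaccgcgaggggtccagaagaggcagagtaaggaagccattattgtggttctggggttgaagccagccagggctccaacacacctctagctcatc
Tdgf1: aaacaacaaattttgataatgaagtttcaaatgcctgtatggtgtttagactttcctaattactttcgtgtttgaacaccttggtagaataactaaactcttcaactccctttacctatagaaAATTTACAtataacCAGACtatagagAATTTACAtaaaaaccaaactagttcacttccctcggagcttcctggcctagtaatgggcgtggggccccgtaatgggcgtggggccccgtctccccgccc
Acvr2b: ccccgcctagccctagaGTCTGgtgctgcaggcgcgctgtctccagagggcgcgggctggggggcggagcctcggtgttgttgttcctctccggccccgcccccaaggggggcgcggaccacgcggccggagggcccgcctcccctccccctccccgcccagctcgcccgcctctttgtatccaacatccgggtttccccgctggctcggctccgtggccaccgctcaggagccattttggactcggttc
The Tdgf1 window held 1 CAGAC between 2 AATTTACA, from 127 to 94 bases before the start. The Acvr2b window held 1 SMAD box on the opposite strand (GTCTG), from 233 to 229 bases before the start, and no FOXH1 motif. The Nodal window held neither motif, which says only that these letters are not in this window. Of 32851 promoter windows of this length, 42.2% held CAGAC and 10.9% held AATNNACA. None of the 3 held the octamer ATGCAAAT, found in 1.6% of windows.

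Lefty1 and Lefty2, the secreted antagonists, had the widest spread over the 4 arrays when each of the 8 genes was read by its brightest probe set, with log2 spans of 1.44 and 1.39 (the weaker Skil probe set spanned 1.57), and in both the genotype difference had opposite signs with and without feeders. Lefty1 gave a signal of 1804.3 in labelled-null and 660.6 in heterozygous cells on feeders, against 901.6 in labelled-null and 1271.3 in heterozygous cells without feeders. The highest of its 4 values was that of labelled-null cells on feeders and the lowest that of heterozygous cells on feeders, a ratio of 2.73. Labelled-null cells were thus 2.72-fold higher on feeders (log2 difference 1.44) and 1.41-fold lower without feeders (log2 difference -0.49). These differences are on the scale log2(signal + 4.6), where the offset draws the folds of weak signals towards 1, and they compare 1 array with 1 array and have no test.

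Lefty2 had signals of 444.4 in labelled-null and 185.7 in heterozygous cells on feeders, against 167.1 in labelled-null and 427.0 in heterozygous cells without feeders. The high arrays were labelled-null on feeders and heterozygous without feeders, and the other two were low and close to each other. The log2 difference between genotypes was 1.24 on feeders (2.36-fold higher) and -1.33 without feeders (2.51-fold lower). Lefty2 was 1 of 2 genes, the other being Ltb, that were at least 2-fold higher in labelled-null cells on feeders and at least 2-fold lower without feeders, among 12485 tested genes (0.016%). Another 13 genes (0.104%) met that size in the opposite directions. Ltb encodes a cytokine of the tumour necrosis factor family and had signals of 17.7 and 4.0 on feeders and of 9.5 and 24.9 without feeders, labelled-null cells first.

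Read the other way, the same 4 signals give the difference with feeders in each genotype. In labelled-null cells Lefty2 was 2.62-fold higher on feeders than without, and in heterozygous cells it was 2.27-fold lower. Read by the brightest probe set of each gene, it alone of the 8 reached 2-fold in either genotype, at a background of 6.3% higher and 2.31% lower in labelled-null cells and of 7.8% higher and 1.64% lower in heterozygous cells. It was the only one of the 12485 tested genes (0.00801%) at least 2-fold higher in the one genotype and at least 2-fold lower in the other. Weaker probe sets of Skil (2.77-fold lower on feeders in labelled-null cells) and Nodal (2.01-fold lower on feeders in heterozygous cells) also reached that size. A difference above 0 in labelled-null and below 0 in heterozygous cells, of any size, was seen in 16.7% of tested genes. Lefty1 came close to the 2-fold size, with log2 differences of 1.00 in labelled-null cells and -0.94 in heterozygous cells. The 2 genes are related in sequence and lie near each other on one chromosome, with 2 annotated genes between them, 1 of them protein-coding. Each was read by 1 probe set of its own, and binding of one transcript to the other's probes was not tested.

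**Figure D1:**
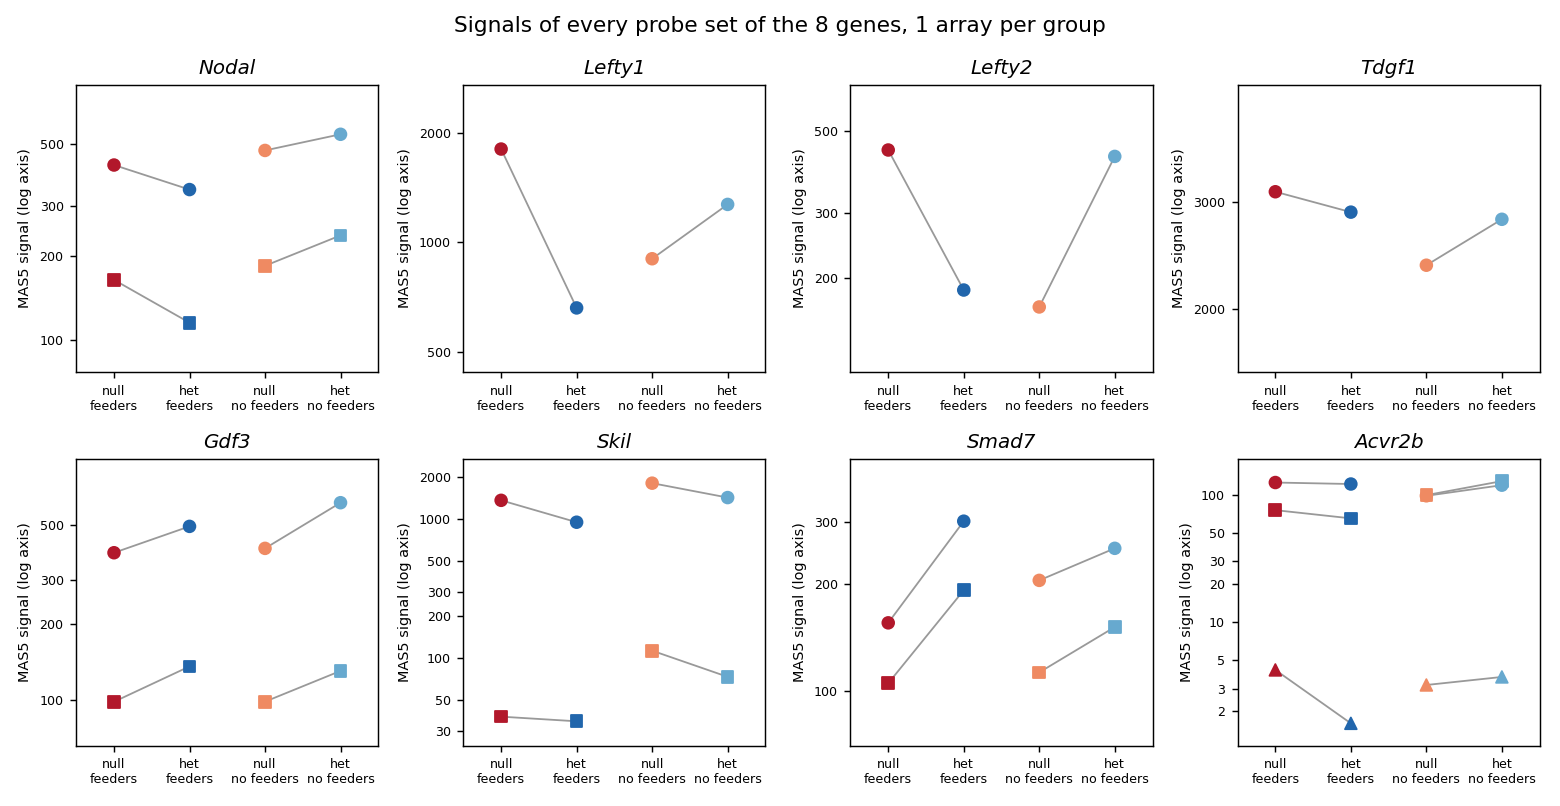
MAS5 signal (log axis, arbitrary units) of all 14 probe sets of the 8 genes, with 1 point per array and a line joining labelled-null and heterozygous cells of the same feeder condition. Circles, squares and triangles are different probe sets of a gene, from the brightest down. For Lefty1 and Lefty2 the 2 lines slope in opposite directions (Lefty2: 444.4 and 185.7 on feeders, 167.1 and 427.0 without).

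Nodal, the ligand, showed the same pair of signs with smaller differences. The brighter probe set read 421.1 in labelled-null and 344.2 in heterozygous cells on feeders, against 474.7 in labelled-null and 542.1 in heterozygous cells without feeders. The other probe set read 163.9 and 115.3 on feeders and 184.0 and 236.2 without feeders, in the same order of genotypes. Both probe sets were highest in heterozygous cells without feeders and lowest in heterozygous cells on feeders. The log2 difference between genotypes was 0.29 on feeders and -0.19 without feeders for the brighter probe set, and 0.49 and -0.35 for the other. With feeders, Nodal was lower in both genotypes, by a log2 difference of -0.17 in labelled-null and -0.65 in heterozygous cells (feeder term -0.41, SE 0.17, limma adjusted p = 0.235 over all genes).

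Gdf3, a second ligand of the family that is abundant in ES cells, was lower in labelled-null cells in both conditions. Its brighter probe set read 386.7 in labelled-null and 493.0 in heterozygous cells on feeders, against 402.6 in labelled-null and 613.1 in heterozygous cells without feeders. The other probe set read 98.0 and 135.7 on feeders and 98.1 and 130.2 without feeders. On both probe sets both labelled-null arrays lay below both heterozygous arrays. The fitted log2 difference of the brighter probe set was -0.47 (SE 0.14), with an unadjusted p of 0.0176 and a limma adjusted p of 0.304 over all genes.

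Tdgf1, the co-receptor gene, had the strongest signals of the 14 probe sets and varied little. It read 3115.8 in labelled-null and 2883.7 in heterozygous cells on feeders, against 2357.5 in labelled-null and 2806.5 in heterozygous cells without feeders. Its highest signal was 1.32 times its lowest. The genotype log2 difference was 0.11 on feeders and -0.25 without feeders, again with opposite signs.

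Acvr2b, which encodes a type II receptor for Nodal and activin, varied as little with its brightest probe set. That probe set read 124.2 in labelled-null and 120.9 in heterozygous cells on feeders, against 97.7 in labelled-null and 118.4 in heterozygous cells without feeders. The second read 75.4 and 65.0 on feeders and 98.9 and 127.4 without feeders. The genotype differences of both had the same signs, 0.04 and 0.20 on feeders and -0.27 and -0.35 without. The 2 probe sets disagreed on feeders against none: the brightest was higher on feeders and the second lower. The third probe set lay between 1.6 and 4.2 on all arrays and was the 1 of 14 whose mean log2 value was below the filter (log2 3.81, a signal of 9.46).

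Skil, which encodes the SMAD inhibitor SnoN, was higher in labelled-null cells in both conditions. The brighter probe set read 1359.1 in labelled-null and 945.8 in heterozygous cells on feeders, against 1805.8 in labelled-null and 1422.6 in heterozygous cells without feeders. Its fitted genotype log2 difference was 0.43 (SE 0.10), with an unadjusted p of 0.00595 and a limma adjusted p of 0.226 over all genes. Both genotypes read lower on feeders, with a feeder term of -0.50 (SE 0.10, limma adjusted p = 0.0562 over all genes). That term passed the threshold with median centring (adjusted p = 0.0388) and with the mean of its probe sets (adjusted p = 0.0452). The weaker probe set read 37.8 and 35.0 on feeders and 112.7 and 73.1 without feeders, so that its genotype difference lay mostly without feeders.

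Smad7, which encodes an inhibitory SMAD that blocks the receptors, was lower in labelled-null cells. It read 155.7 in labelled-null and 301.1 in heterozygous cells on feeders, against 205.1 in labelled-null and 252.5 in heterozygous cells without feeders. Its second probe set, of the x_at kind that can bind several transcripts, read 105.2 and 192.4 on feeders and 112.9 and 151.5 without feeders. On both probe sets the labelled-null arrays were the lower 2 of the 4, and the gap was wider on feeders, with log2 differences of -0.93 and -0.84 against -0.29 and -0.41 without feeders. The fitted difference was -0.61 (SE 0.21), with an unadjusted p of 0.0272 and a limma adjusted p of 0.348 over all genes. Skil and Smad7 thus differed between genotypes in opposite directions, both with unadjusted p-values under 0.05 and neither past the adjusted threshold.

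Over the 8 genes, all of which passed the filter on low values, 0 passed the limma test between genotypes over all genes, at a background of 0.032% (4 of 12485 genes). At an unadjusted p under 0.05 there were 3, Gdf3, Skil and Smad7, where 12.3% of all tested genes (1535) lay under it. This fit holds 1 genotype term for both feeder conditions and its only residual is the difference between the 2 conditions. A gene whose 2 differences lie far apart therefore has a wide error, as for Lefty1 (log2 0.47, SE 0.42, limma adjusted p = 0.699). Opposite signs and like sizes also give a fitted value near 0, as for Lefty2 (log2 -0.05, SE 0.56, limma adjusted p = 0.983). Tdgf1, with small differences of opposite signs, had an SE of 0.1. By size alone, on feeders 2 of the 8 were at least 2-fold higher in labelled-null cells, at a background of 1.34%, and 0 at least 2-fold lower, at 2.1%. Without feeders 0 were at least 2-fold higher, at a background of 3.79%, and 1 at least 2-fold lower, at 2.97%. The calls were Lefty1 and Lefty2 on feeders and Lefty2 without.

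In sign, 6 of the 8 genes were above 0 on feeders and 7 of the 8 below 0 without feeders. For 5 of them, Nodal, Lefty1, Lefty2, Tdgf1 and Acvr2b, the difference was above 0 on feeders and below 0 without, a combination that 20.3% of all tested genes showed, and 39.9% had opposite signs one way or the other. For Acvr2b the value on feeders was 0.04 and was -0.02 with median centring. The median genotype difference of the 8 was 0.20 on feeders and -0.28 without feeders, on the log2 scale, beside 0.01 and 0.00 over all tested genes. These 8 were chosen with results of these arrays known, so the counts describe them and do not test them. None of the 8 reached 2-fold in the same direction in both pairs, at a background of 1.11%. Of the 3 genes with the same sign in both pairs, Skil was higher and Gdf3 and Smad7 were lower in labelled-null cells.

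**Figure D2:**
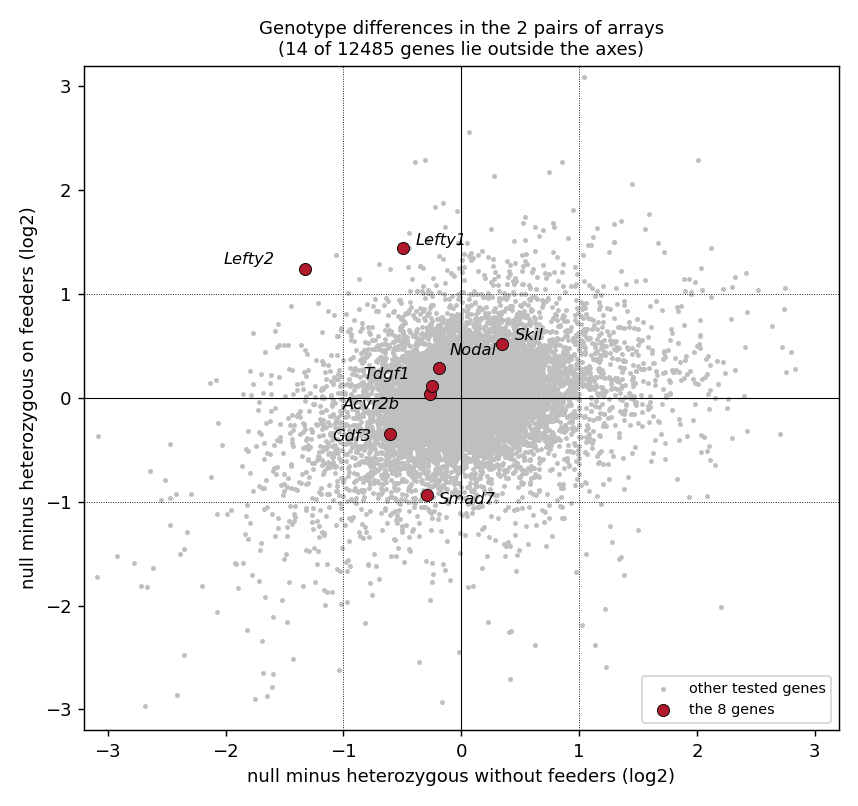
Log2 difference between labelled-null and heterozygous cells on feeders (y axis) and without feeders (x axis) for the tested genes, with the 8 genes in red and dotted lines at 2-fold. Lefty2 lies beyond 2-fold on both axes (1.24 on feeders, -1.33 without), while Lefty1 does so on feeders alone (1.44 and -0.49).

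The difference between the 2 genotype differences, on feeders minus without, was 2.57 on the log2 scale for Lefty2 and 1.94 for Lefty1. With 4 arrays this value has no residual error and was not tested. Only 6 of the 12485 tested genes, Lefty2 included, had a value as high as that of Lefty2 (0.0481%), and 32 had one as high as that of Lefty1 (0.256%). In size, whatever the sign, 37 genes reached Lefty2 and 118 reached Lefty1. By the 2-fold size 3.13% of tested genes were higher and 4.75% lower in this measure. The other 6 members lay inside the bulk of genes, at 0.48 for Nodal, 0.36 for Tdgf1, 0.30 for Acvr2b, 0.25 for Gdf3, 0.18 for Skil and -0.64 for Smad7.

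**Figure D3:**
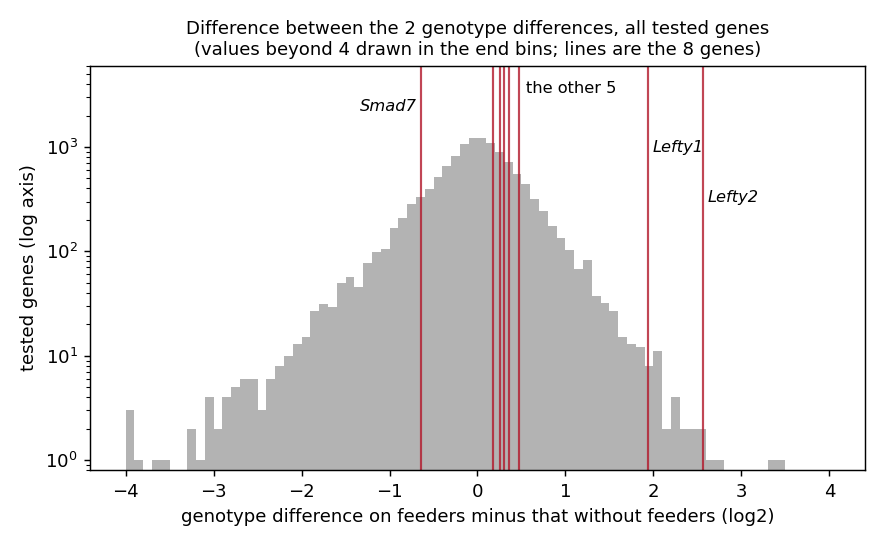
Number of tested genes (log axis) by the genotype difference on feeders minus that without feeders (log2, bins of 0.1), with a line for each of the 8 genes. Lefty1 (1.94) and Lefty2 (2.57) lie in the upper tail, Smad7 (-0.64) below 0 and the other 5 between 0.18 and 0.48.

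The genes whose centred log2 values over the 4 arrays lay nearest to those of Lefty1 and Lefty2 were sought among all tested genes, by Euclidean distance. The nearest to Lefty1 were Trim12c (distance 0.18), Aff3 (0.22) and Nptx1 (0.30), and 36 genes lay within 0.5. The nearest to Lefty2 were Gstt2 (0.24), Apobec2 (0.32) and Slc27a2 (0.36), and 6 genes lay within 0.5. With 4 arrays and 12484 genes to choose from, such neighbours are a description of these arrays.

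The wider pathway list held 53 genes by role, of which 50 were on the array under 1 symbol and 42 passed the filter, the 8 members among them. Between genotypes 0 of the 42 passed the limma test over all genes, at a background of 0.032%, with 11 at an unadjusted p under 0.05, where 12.3% of all tested genes lay. By size, 3 of the 42 were at least 2-fold higher in labelled-null cells on feeders and 2 lower, at backgrounds of 1.34% and 2.1%. Without feeders 5 were higher and 4 lower, at backgrounds of 3.79% and 2.97%. Without the 8 members these counts were 1 and 2 on feeders and 5 and 3 without feeders. The 1 higher on feeders was Pcsk5, also among the 5 higher without feeders, and it met the filter only through the labelled-null arrays. The median genotype difference of the 34 tested genes other than the members was -0.05 on feeders and 0.14 without feeders, and the median difference of differences was -0.35, against 0.33 for the 8 members and 0.00 for all tested genes.

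Among the extracellular antagonists, Fst, which encodes follistatin, a binder of activin, differed in the opposite sense to the Lefty genes. Its brighter probe set read 210.9 in labelled-null and 410.6 in heterozygous cells on feeders, against 191.0 in labelled-null and 41.5 in heterozygous cells without feeders. The log2 difference was -0.95 on feeders and 2.09 without feeders, and its second probe set gave -0.88 and 2.16. The lowest array was that of heterozygous cells without feeders and the highest that of heterozygous cells on feeders, with both labelled-null arrays between them. In heterozygous cells Fst was 9.01-fold higher on feeders. Without feeders the fibroblast markers were also higher in labelled-null cells (summed signal 845.4 against 339.8), and their part in the Fst values was not tested. Fstl3, a relative of follistatin, read 9.0 in labelled-null and 24.5 in heterozygous cells without feeders, and 51.5 and 54.5 on feeders. Inha, the inhibin alpha subunit gene, had weak signals of at most 20.6, and Cer1 and Dand5, which encode antagonists of Nodal, were below the filter.

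Among the ligands, the TGF-beta gene Tgfb2 stood out on the array of labelled-null cells without feeders. Its brightest probe set read 46.2 in labelled-null and 36.3 in heterozygous cells on feeders, against 171.0 in labelled-null and 36.1 in heterozygous cells without feeders, 4.31-fold higher. All 4 of its probe sets differed by at least 1.85 on the log2 scale without feeders, whereas on feeders they disagreed in sign, from -0.64 to 0.31. The activin subunit genes differed in opposite directions without feeders by their brighter probe sets. Inhba read 27.8 in labelled-null and 9.7 in heterozygous cells, and Inhbb 12.1 and 55.7. The weaker probe set of Inhba had the reverse sign (0.8 and 8.2), and that of Inhbb differed less (9.4 and 15.9). Fibroblast markers were also higher in labelled-null cells without feeders (summed signal 845.4 against 339.8), and their part in the Inhba values was not tested. On feeders the brighter probe sets read 119.3 and 155.4 for Inhba and 199.2 and 194.5 for Inhbb. Tgfb1 had a log2 difference of -0.10 on feeders and 0.69 without.

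With feeders, 4 of the 34 tested pathway genes other than the members rose by the limma test over all genes, at a background of 3.88%, and 0 fell, at 0.881%. They were Tgfb3 (adjusted p = 0.00392), the type II TGF-beta receptor gene Tgfbr2 (2.41, SE 0.20, adjusted p = 0.00394), Inhba (2.71, SE 0.39, adjusted p = 0.0205) and Inhbb (2.67, SE 0.44, adjusted p = 0.0322). Tgfb3 read 82.2 in labelled-null and 72.8 in heterozygous cells on feeders, against 0.7 and 1.6 without. It met the filter only through the arrays on feeders, since its other signals lay below the filter signal of 9.46, and no fold is given for it. Of the 19 fibroblast markers, 18 rose in the same test, and their part in these 4 rises was not tested. Among these markers Fap also met the filter only through the arrays on feeders (4.5 in labelled-null and 1.8 in heterozygous cells without). Col1a1, Lox, Lum, Postn, Prrx1 and Twist2 lay below the filter signal in heterozygous cells without feeders. The count of 4 was 2 with no filter and 1 with a filter at the 60th percentile. Of the 8 members, 0 passed this test in either direction, at a background of 4.77% in both directions together.

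Of the receptors, Tgfbr2 also had the largest genotype difference, with 473.6 in labelled-null and 245.0 in heterozygous cells on feeders, against 100.4 and 35.8 without (fitted log2 1.16, SE 0.20, limma adjusted p = 0.152 over all genes). Its weaker probe sets, with signals of at most 33.2, differed less. Their log2 differences were 0.55 and 0.32 on feeders and 0.41 and 0.32 without. The fibroblast markers had a median genotype difference of 0.48 on feeders and 1.22 without feeders, in the same direction as Tgfbr2, and their part in it was not tested. The type I receptor genes Tgfbr1 and Acvr1b and the type II gene Acvr2a differed by at most 0.45 on the log2 scale in either pair. The co-receptor gene Cfc1, a relative of Tdgf1, was 1.49-fold lower in labelled-null cells on feeders and 1.75-fold lower without feeders (limma adjusted p = 0.364 over all genes).

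The signal SMAD genes had small differences on feeders and values above 0 without feeders. Smad3 differed by 0.22 on feeders and 0.80 without feeders, Smad4 by 0.12 and 0.49, and Smad2 by -0.21 and 0.12, on the log2 scale, and none passed the limma test. Pmepa1, a target of the pathway that encodes a membrane inhibitor, was higher in labelled-null cells, with 218.4 and 149.1 on feeders and 161.2 and 78.4 without (fitted log2 0.77, SE 0.20, limma adjusted p = 0.254). Bambi, which encodes a decoy receptor, differed by -0.37 on feeders and 0.54 without, and Tmeff1 by 0.16 and 0.06. Of the intracellular inhibitors besides Skil and Smad7, the phosphatase gene Ppm1a had the largest fitted difference, -0.44 (SE 0.13, limma adjusted p = 0.308).

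Foxh1, which encodes the SMAD partner FOXH1, had the signs of the Lefty genes. Its brightest probe set read 101.3 in labelled-null and 83.9 in heterozygous cells on feeders, against 99.1 in labelled-null and 171.5 in heterozygous cells without feeders, log2 differences of 0.26 and -0.76. Eomes, which encodes a second partner, was 2.47-fold lower in labelled-null cells on feeders (21.2 against 59.0) and even without feeders (42.1 against 42.5). Otx2, a homeobox target, was lower in both pairs, with 86.2 and 187.0 on feeders and 51.0 and 211.2 without (fitted log2 -1.52, SE 0.26, limma adjusted p = 0.152). Foxa2 gave weak signals of 7.8 to 17.5.

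The proprotein convertases, which cleave the Nodal precursor and other substrates, went different ways. Pcsk5 read 25.3 in labelled-null and 8.7 in heterozygous cells on feeders, against 32.9 and 2.9 without, and was called higher by the 2-fold size in both pairs. Both heterozygous signals lay below the filter signal of 9.46. Pcsk5 thus met the filter only through the labelled-null arrays, and no fold is given for it. Of its other 4 probe sets, all weak, 1 exceeded 2-fold without feeders and none did so on feeders. They disagreed in sign, with log2 differences from -0.25 to 0.08 on feeders and from -0.45 to 1.08 without. Pcsk6 was lower in both pairs (fitted log2 -0.74, SE 0.19, limma adjusted p = 0.242). Furin differed by 0.25 on feeders and 0.83 without feeders.

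**Figure D4:**
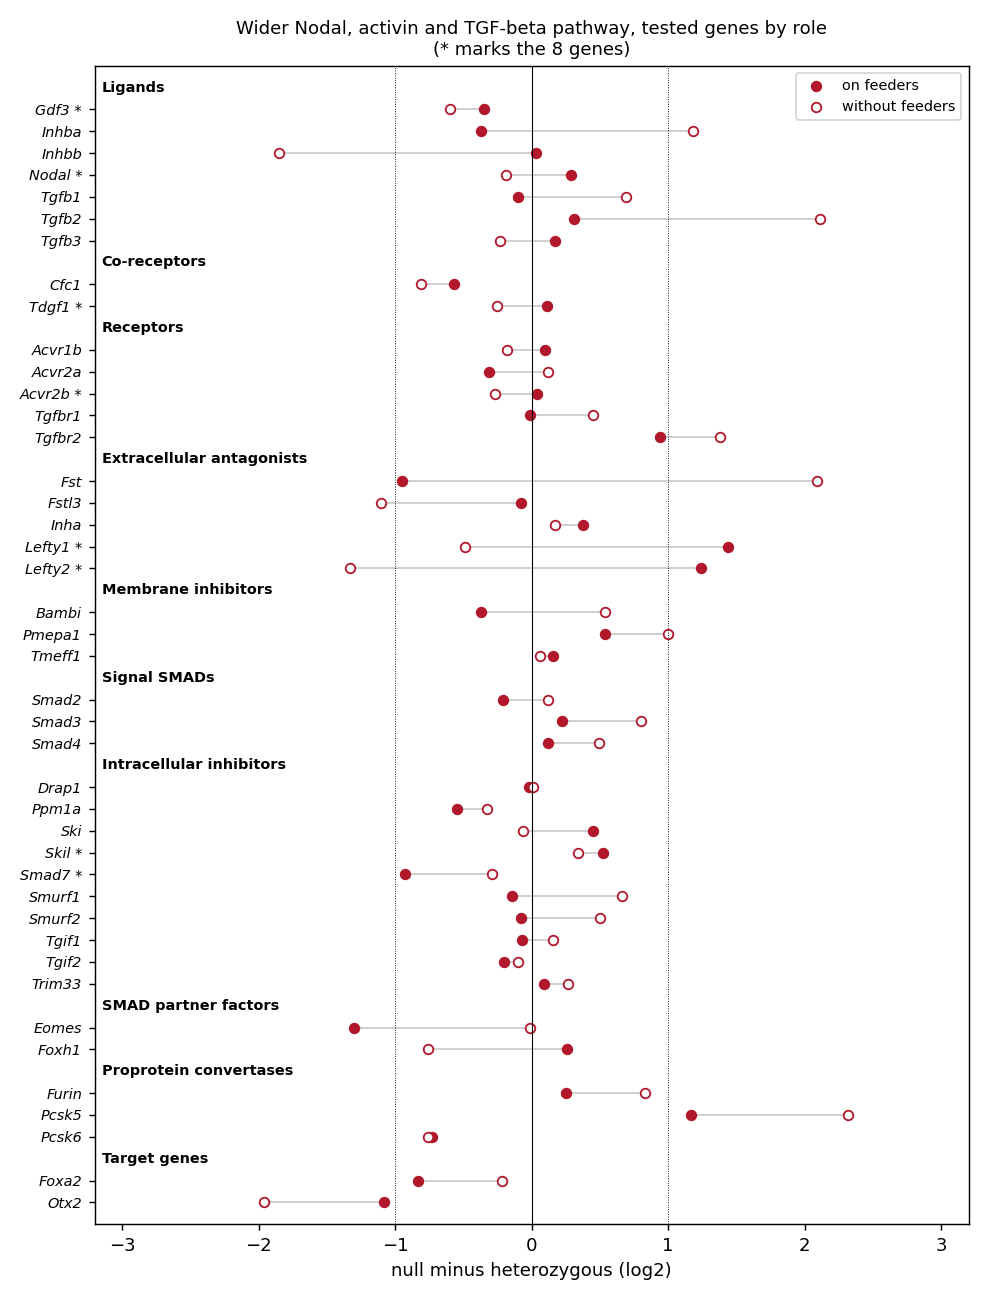
Log2 difference between labelled-null and heterozygous cells for the 42 tested genes of the wider pathway list, by role, on feeders (filled) and without feeders (open), with dotted lines at 2-fold. Lefty1, Lefty2 and Fst have the 2 points furthest apart on opposite sides of 0, with Fst reversed (-0.95 on feeders, 2.09 without).

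Markers of other cell states were read beside these results. The 6 primed epiblast markers summed to 1682.5 in labelled-null and 1607.3 in heterozygous cells on feeders, and to 1881.4 in labelled-null and 3371.9 in heterozygous cells without feeders, where the Lefty genes, Nodal and Foxh1 were also lower in labelled-null cells. None was at 0. Dnmt3b made up most of these sums (1232.0 and 1300.9 on feeders, 1372.5 and 2446.2 without), and Lef1 alone was higher in labelled-null cells in both pairs, with 288.3 and 20.3 on feeders and 260.6 and 88.2 without. The median genotype difference of the 6 was -0.46 on feeders and -1.30 without feeders, below 0 in both pairs. The part of these markers in the Lefty values was not tested. Primitive endoderm markers, 10 genes, summed to 353.5, 556.7, 588.7 and 557.6 over the arrays in the same order, and 7 primitive streak and mesoderm markers to 50.5, 88.4, 91.9 and 98.9. Oct3/4 (Pou5f1) read 1187.4 and 1112.1 on feeders and 977.0 and 1284.2 without, a genotype difference with the signs of the Lefty genes but of 0.09 and -0.39 in size.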

How the data were processed

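RNA of 4 ES cell cultures was hybridised to 1 Affymetrix array each. The deposited values were used as array intensities: linear MAS5 signals for 45101 probe sets, made by MAS5 (version not given in the sources used here) per the submitters' processing notes, without detection calls. The 64 control probe sets were left out. A table pairing probe sets with genes gave 34945 probe sets 1 symbol, 932 several and 9160 none, and those with several or none were not used.

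Signals were transformed as log2(signal + 4.6), 4.6 being the 25th percentile of all signals. Each gene was read by its brightest probe set, and a mean log2 value at the 40th percentile over probe sets was required, which 12485 genes met. All probe sets of the members were also described. The fit, run with limma 3.58.1 in R 4.3.3 (lmFit, eBayes with a variance trend), had a genotype and a feeder term and 1 residual degree of freedom. It was tested on simulated data with added genotype differences that were the same in both feeder conditions and with no feeder effect. That simulation does not cover genes whose genotype difference changes with feeders. Tests were two-sided with Benjamini-Hochberg adjustment over all tested genes at 0.05. Genotype differences are labelled null minus heterozygous. Pairs of single arrays were called by size (at least 2-fold, brighter array above the median signal of 17.1), with no test. The number of arrays limits the precision. With 1 array per group the spread within a group was not measured. The residual behind the p-values is the difference between the 2 genotype differences of a gene. In eBayes each gene's error is drawn towards that of the other genes (median prior degrees of freedom 4.75, beside 1 residual). The SEs are therefore not each gene's own spread.

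Alternatives changed the offset, filter, normalization, probe set rule, variance trend, fit and fold size. Named genes were Sall4, the 8 members and, from the wider list, those called by any rule and up to 3 more per role with the largest fitted genotype difference. The nearest patterns were named for members spanning at least 1 (log2). The members, gene lists and motifs were chosen with earlier results of these data known. Gdf1 shares its probe set with another symbol and was not used here.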

Additional observations from a re-analysis of the deposited data

Results flagged for a closer look

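For 5 of the 8 genes the genotype difference was above 0 on feeders and below 0 without feeders, with 1 array against 1 array in each condition. The difference on feeders minus that without feeders was 2.57 for Lefty2, 1.94 for Lefty1, 0.48 for Nodal, 0.36 for Tdgf1 and 0.30 for Acvr2b, on the log2 scale. With median centring the Acvr2b difference on feeders itself was -0.02. The difference between the 2 conditions was not tested, since 4 arrays leave no residual for it. Of all tested genes, 20.3% were likewise above 0 on feeders and below 0 without, and 39.9% had opposite signs one way or the other.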

How the results depend on the processing

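Each group has 1 array, which leaves no replicate number to block on. The fit compares genotypes within feeder conditions through its feeder term. The Lefty differences kept their signs under all alternatives run: over offset and normalization choices (each has 1 probe set, so the probe set rule could not move them), Lefty1 ranged from 1.38 to 1.46 on feeders and from -0.56 to -0.43 without, and Lefty2 from 1.18 to 1.30 and from -1.39 to -1.27. With a 1.5-fold size, 1 member (Smad7) was called lower on feeders and 2 (Lefty2 and Gdf3) without feeders, and with a 3-fold size 0 were called higher on feeders and 0 lower without. The count of members lower with feeders, 0, was 1 (Skil) with median centring and with the mean of probe sets. Of the wider list, the 4 genes higher with feeders were 2 with no filter and 1 at the 60th percentile, and the mean of probe sets gave 1 lower with feeders. Its 3 genes higher on feeders were 1 without the 8 members, and its 5 higher without feeders were 2 with the mean of probe sets. Fitted values that changed sign, none past the threshold, were: for genotype, Nodal with median centring (-0.01) and Acvr2b with the mean of probe sets (0.01), and for feeders, Lefty1 with median centring (-0.04), and Smad7 (0.03) and Acvr2b (-0.20) with the mean of probe sets. With the second probe set, the difference of differences was -0.50 for Skil, against 0.18, -0.06 for Gdf3, against 0.25, 0.84 for Nodal, against 0.48, and 0.55 for Acvr2b, against 0.30. The causes were not tested. The genotype count of 0 of 8 members held under the alternatives run.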

Other observations

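All 3 probe sets of Foxh1 had a genotype difference above 0 on feeders and below 0 without feeders. The widest was that of the weakest probe set, which read 72.5 in labelled-null and 48.9 in heterozygous cells on feeders, against 45.4 in labelled-null and 158.7 in heterozygous cells without feeders. Its values were known when it was picked out. Both probe sets of Fst had the reverse signs, with a difference of differences of -3.03 and -3.04 on the log2 scale, against 2.57 for Lefty2.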
